A study of Mus musculus with 6 samples.

Results

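The heat shock proteins, their co-chaperones and the chaperonins of the cytosol and mitochondria were examined in MPC5 cells, a conditionally immortalised mouse podocyte line, after overexpression of lncRNA Dlx6-os1. Members were chosen by gene symbol: the HSP70, HSP110 and HSP90 families, the small heat shock proteins (Hspb) and the J-domain proteins (Dnaja, Dnajb and Dnajc). The subunits of the chaperonin CCT, the mitochondrial chaperonin, the BAG proteins and the heat shock factors were members too. Hspa5, Dnajb9, Dnajb11 and Dnajc3, chaperones of the endoplasmic reticulum that the unfolded protein response controls, were left out. This gave 66 genes with 140 transcripts, among 11308 genes and 21849 transcripts in the table. RNA-seq was done on 3 Dlx6-os1 overexpression samples and 3 control samples of cells given as strain C57BL/6, cultured at normal glucose. According to the labels, the cells were infected with a lentivirus that carried dlx6-os1 or with the vector lacking an insert, whereas the methods of the study name an adenovirus and normal controls. The titles call the controls WT, and control 3 has no genotype label. The methods of the study say in general that measurements came from distinct samples, and for the RNA-seq replicates the labels do not say whether these were separate cultures, so p-values measure the spread between these samples, which may be technical.

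Molecular chaperones bind unfolded chains and help them to fold. HSP70 proteins hold short exposed stretches in a cycle driven by ATP, J-domain proteins bring them substrates and start the hydrolysis of ATP, and the BAG and HSP110 proteins exchange the nucleotide so that the substrate is let go. HSP90 completes the folding of kinases and steroid receptors, the barrel-shaped CCT folds actin and tubulin, and Hspd1 with its lid Hspe1 folds proteins inside mitochondria. Heat shock factor Hsf1 turns on many of these genes when unfolded proteins accumulate, and podocytes depend on the actin skeleton to keep their foot processes.

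Values are FPKM, which scale fragments by transcript length and by the mapped total, summed over the transcripts of a gene. All members have a mean of at least 0.5 FPKM in the larger of the 2 group means, the lowest level that the table holds, and 18 other annotated genes that fit the rule, Hspb1 and Hspb8 among them, were not analysed here. Samples of the overexpression group correlated with each other at 0.965 to 0.980 across genes, those of the control group at 0.950 to 0.979, and samples of different groups at 0.931 to 0.975. Dlx6-os1 itself was not analysed here, so its level does not check the labels. Of the podocyte markers, 7 of 13 were measured, and Nphs1, which encodes nephrin, was not analysed here. The summed level of the 7 was 342, 343 and 397 FPKM in overexpression samples, against 465, 458 and 375 FPKM in controls. The markers differed in direction, with 2 positive and 5 negative log2 changes. Actn4, the most abundant, had means of 213 FPKM in overexpression samples and 185 FPKM in controls, and Kirrel 44.0 and 128 FPKM. Kirrel and Plce1 were lower in every overexpression sample than in any control, as were 6.24% of all genes. The 3 measured tubule markers of 9, Aqp1, Lrp2 and Cdh16, summed to 282, 237 and 103 FPKM in overexpression samples and 434, 532 and 337 FPKM in controls. Summed mesangial markers (3 of 5 measured) were 7.94 to 12.3 FPKM in overexpression samples and 14.7 to 16.3 FPKM in controls. Immune cell markers (2 of 7) summed to 10.2 to 12.5 FPKM in overexpression samples and 10.6 to 13.5 FPKM in controls, and none of 6 endothelial markers was analysed here. The samples are of a single cell line, so these sums are levels in bulk RNA and not counts of other cell types. Fewer cells that express a marker and less of its RNA per cell cannot be told apart. The part of these markers in the results below was not tested.

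The study called a gene where its fold exceeded 1.5 (0.585 on the log2 scale) and its p was under 0.05, and here the p of limma was taken without adjustment. By these thresholds no chaperone gene was higher after Dlx6-os1 overexpression and 1 gene, Hspa2, was lower. Among all genes, 4.72% passed, 2.49% as higher and 2.23% as lower. With Benjamini-Hochberg adjustment over all genes in limma, 0 members had an adjusted p under 0.05, as did 0.0354% of all genes, and this count was also 0 under each of the 18 alternative settings. At an unadjusted p under 0.05, 6 members passed, 5 higher and 1 lower. That is 9.09% of the members, beside 9.16% of all genes, so the share was near the background, which was made up of 5.29% higher and 3.87% lower. The number higher at both thresholds was 3 without overexpression sample 1, 4 without overexpression sample 2, 3 without control 1, 1 without control 2 and 1 without control 3. The number lower was 4 without overexpression sample 1, 2 without overexpression sample 2 and 0 without overexpression sample 3. The number at an unadjusted p under 0.05 was 13 without control 1 and 4 without overexpression sample 3. The share of all genes was not counted in these fits, so these counts have no background to stand beside.

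Positive differences were more frequent than negative ones, mostly at sizes that did not pass a test. The log2 change was positive for 44 members and negative for 22, which makes 66.7% positive against 54.2% of all genes. The median was 0.08 over the members and 0.03 over all genes. In 12 members, 18.2% of them, all overexpression samples lay above all controls, whereas this held for 10.1% of all genes. In 3 members, or 4.55%, all overexpression samples lay below all controls, beside 6.24% of all genes. The 12 genes were Hspa8, Hspa9, Hspa14, Hsph1, Hsp90ab1, Hspd1, Cct2, Cct8, Tcp1, Dnaja3, Dnaja4 and Dnajc9, and the 3 were Hspa2, Dnajb6 and Dnajc12. The class medians took different signs, some of them over 2 or 3 genes. The median log2 change was 0.36 for the mitochondrial chaperonin (2 genes), 0.30 for HSP110 (3 genes) and 0.23 for HSP90 (2 genes). It was 0.22 for CCT (7 genes), 0.19 for Dnaja (4 genes) and 0.16 for HSP70 (8 genes). For BAG (6 genes) it was 0.03, for Dnajc (22 genes) 0.02 and for the heat shock factors (2 genes) 0.02. For Dnajb (7 genes) it was -0.10, and for the small heat shock proteins (3 genes) -0.28.

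**Figure D1:**
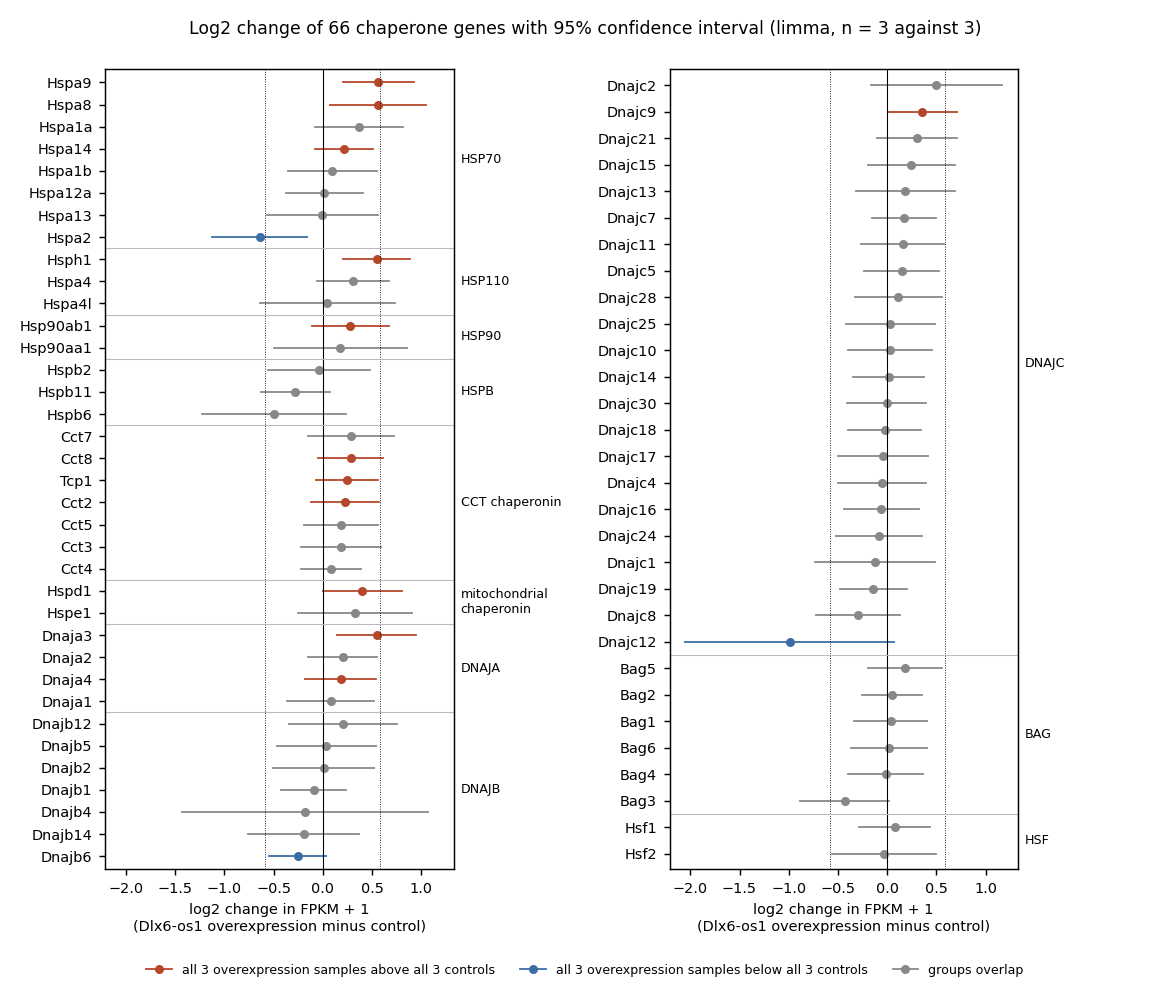
Log2 change in FPKM + 1 (x axis, Dlx6-os1 overexpression minus control) of the 66 chaperone genes, grouped by class, as points with 95% confidence intervals from limma. Dotted lines mark a fold of 1.5; the 12 genes in red are higher in every overexpression sample than in any control, and the 3 in blue are lower.

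The most abundant HSP70 gene, Hspa8 (chr9:40800984-40805200, plus strand, GRCm38), encodes the constitutive HSC70 of the cytosol, which also strips clathrin from vesicles. Its level was 490, 454 and 667 FPKM in overexpression samples, against 297, 380 and 407 FPKM in controls. All overexpression samples lay above all controls, and overexpression sample 3 stood well above the others. The log2 change was 0.56 ± 0.21 (SE), with an unadjusted p of 0.029 and an adjusted p of 0.51 in limma. It was 0.40 without overexpression sample 3 (unadjusted p of 0.091), 0.43 without control 1 (unadjusted p of 0.083) and 0.61 without control 2 (unadjusted p of 0.058).

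Hspa9 encodes mortalin, the HSP70 of the mitochondrial matrix that pulls proteins through the inner membrane. It measured 173, 173 and 196 FPKM in overexpression samples, against 141, 117 and 108 FPKM in controls. The groups were separate, with overexpression samples 1 and 2 nearly equal and control 1 the highest control. The log2 change of 0.56 ± 0.16 (SE) had an unadjusted p of 0.0067 and an adjusted p of 0.44 in limma. Its unadjusted p stayed under 0.05 in every leave-one-out fit.

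Hspa2 was the gene that passed the thresholds in the lower direction. It encodes an HSP70 best known from the testis, where developing sperm need it, and it lies at chr12:76404176-76406934 on the plus strand. Its levels were low throughout, at 8.01, 7.45 and 4.63 FPKM in overexpression samples and 10.1, 10.7 and 11.5 FPKM in controls. Every overexpression sample lay below every control, with overexpression sample 3 the lowest. In limma the log2 change was -0.64 ± 0.21 (SE), with an unadjusted p of 0.015 and an adjusted p of 0.48. Without overexpression sample 3 it was -0.43, below a fold of 1.5 in size, with an unadjusted p of 0.0497. The summed tubule markers (103 FPKM) and mesangial markers (7.94 FPKM) were also lowest in that sample, and the podocyte sum was the highest of its group (397 FPKM). Whether these markers bear on the level of Hspa2 was not tested.

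The other HSP70 genes included Hspa14, a ribosome-bound chaperone, at 68.5, 66.9 and 69.0 FPKM in overexpression samples and 61.6, 60.2 and 54.3 FPKM in controls. These groups were separate, but the log2 change of 0.21 had an unadjusted p of 0.14 in limma. A pair of stress-inducible HSP70 genes, Hspa1a and Hspa1b, lie side by side on chromosome 17 and share much of their sequence: 47.1% of the 100-base windows of the Hspa1a transcript are found in that of Hspa1b. Reads may therefore have been split between them, and each level is uncertain. Hspa1a had 3.38, 4.50 and 3.83 FPKM in overexpression samples and 2.55, 3.56 and 2.33 FPKM in controls. Hspa1b had 14.3, 14.8 and 16.9 FPKM in overexpression samples and 15.2, 17.6 and 10.8 FPKM in controls. The groups overlapped for both, with log2 changes of 0.37 ± 0.20 and 0.10 ± 0.20 (SE). Hspa12a and Hspa13, a cytosolic and a microsomal relative, had log2 changes of 0.02 and -0.01.

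Hsph1 (HSP110, also called HSP105) is a nucleotide exchange factor for HSP70 that, together with it, dissolves protein aggregates. The gene measured 41.3, 38.3 and 47.1 FPKM in overexpression samples and 31.8, 27.5 and 26.5 FPKM in controls. All overexpression samples were above all controls, but only narrowly when transcripts were weighted by length (37.0 in overexpression sample 2, against 36.6 in control 1). It had the lowest unadjusted p of the members, 0.0058, with an adjusted p of 0.43 in limma and a log2 change of 0.54 ± 0.15 (SE). Hspa4, the most abundant HSP110 gene, had 52.9, 56.6 and 55.5 FPKM in overexpression samples and 54.0, 39.1 and 41.3 FPKM in controls, so control 1 reached the overexpression samples. Its log2 change of 0.30 ± 0.16 (SE) had an unadjusted p of 0.090 in limma, and that of Hspa4l was 0.05.

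**Figure D2:**
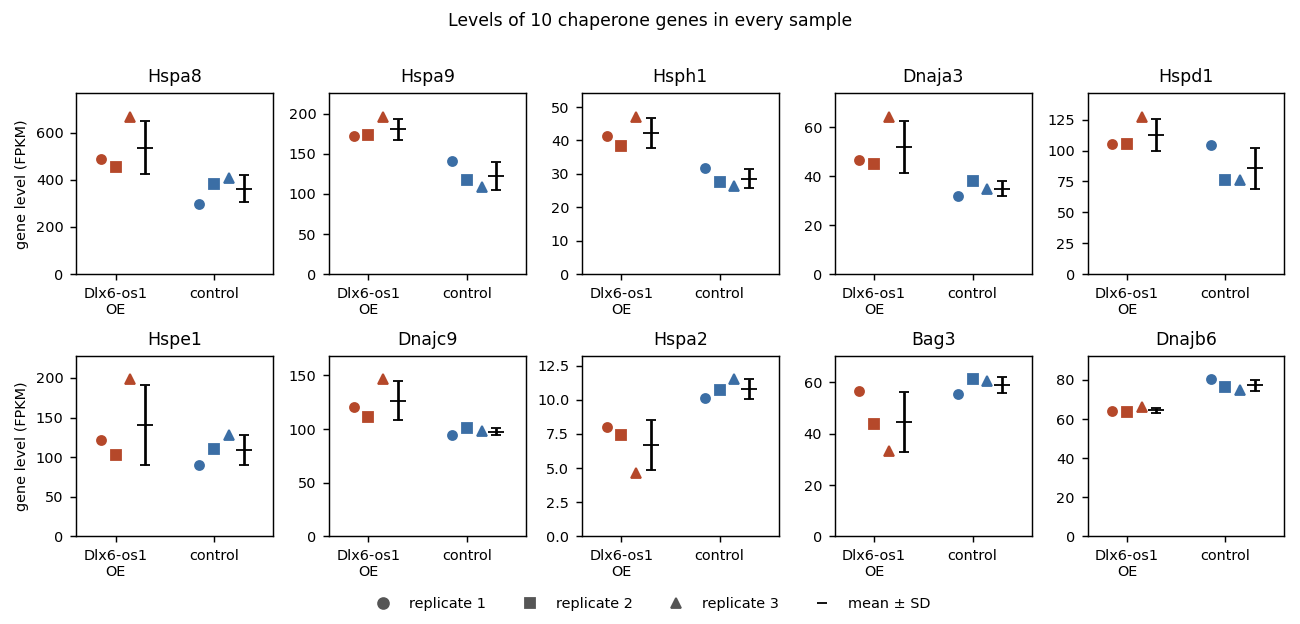
Gene levels (y axis, FPKM, from 0) of 10 chaperone genes in the 3 Dlx6-os1 overexpression (OE) and 3 control samples, with the mean and SD of each group beside the points. Hspa8, Hspa9, Hsph1 and Dnaja3 are higher in every overexpression sample, Hspa2 and Dnajb6 are lower in each, and the groups overlap for Hspe1 and Bag3.

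Of the cytosolic HSP90 genes, Hsp90ab1, the constitutive form, measured 534, 619 and 635 FPKM in overexpression samples and 450, 510 and 511 FPKM in controls. The groups did not overlap, and overexpression sample 1 lay closest to the controls. Its log2 change was 0.28 ± 0.17 (SE), with an unadjusted p of 0.14 in limma. Hsp90aa1, the form that stress induces, measured 276, 159 and 234 FPKM in overexpression samples and 292, 159 and 154 FPKM in controls. Control 1 was the highest of all samples, and the log2 change was 0.17 ± 0.30 (SE).

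The mitochondrial chaperonin genes Hspd1 (HSP60) and Hspe1 (HSP10) are neighbours on chromosome 1. In the GENCODE annotation on GRCm38, Hspd1-201 starts on the minus strand at base 55088024 and Hspe1-201 on the plus strand at base 55088132, with 107 bases between them. Hspd1 had 105.09, 104.96 and 127 FPKM in overexpression samples, against 104.68, 75.8 and 76.6 FPKM in controls. The groups were separate by a small margin, because control 1 lay just under overexpression samples 1 and 2, and they overlapped when transcripts were weighted by length (103 in overexpression sample 2, against 104 in control 1). Its log2 change was 0.40 ± 0.18 (SE), with an unadjusted p of 0.051 in limma, and without control 1 the log2 change was 0.55 with an unadjusted p of 0.0055. Hspe1 had 122, 103 and 198 FPKM in overexpression samples and 89.6, 111 and 128 FPKM in controls. Overexpression sample 2 lay within the controls and sample 3 stood far above, so the log2 change of 0.32 ± 0.25 (SE) was within the spread.

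Heat shock factors bind repeats of a 5-base unit in alternating orientation, and promoters were read for this element because it is the feature by which these genes are known to be controlled together. The RefSeq promoters of GRCm38.p6, from 250 bases before to 50 bases after each start, could be matched to 51 members. On both strands, 3 units in a row (GAANNTTCNNGAA or TTCNNGAANNTTC) occurred in 4 members, Hspd1, Hspe1, Hsph1 and Dnajb6, which is 7.84% of those searched and 0.662% of the promoters of 27025 genes. The shorter element of 2 units (GAANNTTC or TTCNNGAA), which the longer one contains, occurred in 14 members, or 27.5%, and in 17.0% of all genes. Hspd1 and Hspe1 share a single copy, printed once for each strand, and the copies in the promoters of Hspa1a and Hspa1b are the same. Counted from the RefSeq start, its first base is at -89 for Hspe1, -144 for Hspd1, -46 for Dnajb6 and -104 for both Hspa1a and Hspa1b, and at 16 or 37, with the start as 1, for the starts of Hsph1. The windows are 30 bases long, with the element in capitals. Those of Hspe1 and Hspd1 hold overlapping matches that run to 18 bases in all, and those of Hspa1a and Hspa1b the element of 2 units.
Hspe1, chr1:55088053-55088082, plus strand: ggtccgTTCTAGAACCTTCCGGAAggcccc
Hspd1, chr1:55088053-55088082, minus strand: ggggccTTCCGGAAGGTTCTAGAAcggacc
Hsph1, chr5:149636279-149636308, minus strand: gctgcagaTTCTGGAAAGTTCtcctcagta
Dnajb6, chr5:29735844-29735873, plus strand: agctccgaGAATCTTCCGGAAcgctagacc
Hspa1a, chr17:34972242-34972271, minus strand: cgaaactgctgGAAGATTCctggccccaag
Hspa1b, chr17:34959324-34959353, minus strand: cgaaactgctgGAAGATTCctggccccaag

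Of the genes with the element of 3 units, Hspd1, Hspe1 and Hsph1 had positive log2 changes (0.40, 0.32 and 0.54). That of Dnajb6 was negative (-0.26, with an unadjusted p of 0.076 in limma). Hspd1 and Hsph1 were higher in every overexpression sample, Hspe1 overlapped between groups, and Dnajb6 was lower in every overexpression sample. The groups of Hspd1 overlapped when transcripts were weighted by length. Letters that match are a description and not a bound site, and whether a heat shock factor occupied them was not tested. Among the 15 members not searched were Hspa8, Hspa9, Hsp90aa1 and Hsp90ab1.

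All 7 measured subunit genes of the cytosolic chaperonin CCT had positive log2 changes, from 0.08 for Cct4 to 0.28 for Cct7, and none passed an unadjusted p under 0.05 in limma. Their summed level was 848, 855 and 986 FPKM in overexpression samples and 710, 748 and 844 FPKM in controls. The sums were separate by a narrow margin between overexpression sample 1 and control 3. They overlapped when transcripts were weighted by length, with control 3 above overexpression samples 1 and 2. Cct7, the most abundant subunit gene, had 156, 192 and 211 FPKM in overexpression samples and 132, 140 and 188 FPKM in controls, which overlapped. Cct8 had 124, 125 and 123 FPKM in overexpression samples and 116, 91.4 and 99.1 FPKM in controls. It was almost level among the overexpression samples and above each control, with a log2 change of 0.28 ± 0.14 (SE) and an unadjusted p of 0.086. Cct2 and Tcp1 were also separate between groups, with log2 changes of 0.22 and 0.24, but Tcp1 overlapped when its transcripts were weighted by length (86.0 in overexpression sample 2, against 86.4 in control 3).

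**Figure D3:**
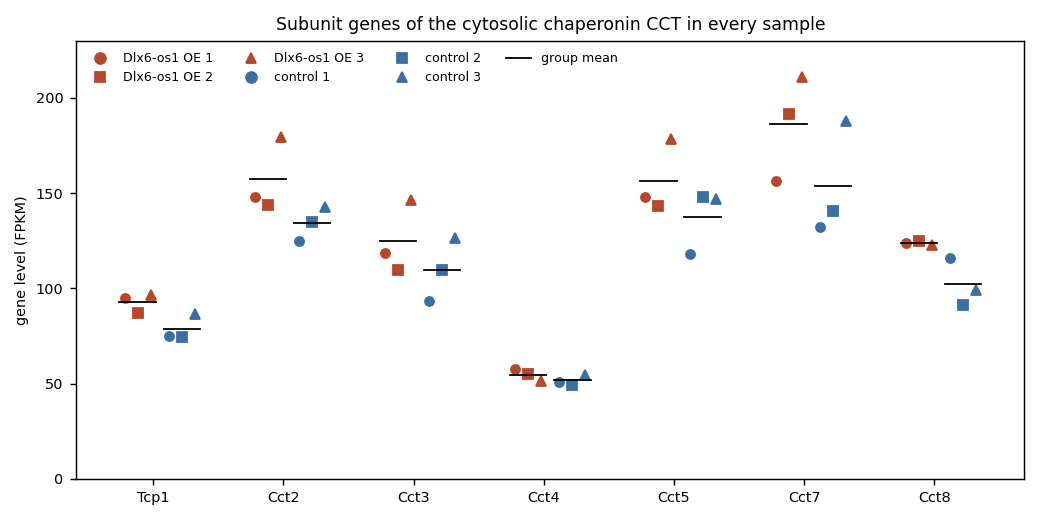
Levels (y axis, FPKM) of the 7 CCT subunit genes in every sample, Dlx6-os1 overexpression (OE, red) left of control (blue), with lines at the group means. The mean is higher in overexpression samples for each of the 7 genes, and the points are separate for Tcp1, Cct2 and Cct8.

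Among the Dnaja proteins, the J-domain partners most like bacterial DnaJ, all 4 had positive log2 changes, beside 54.2% of all genes. When transcripts were weighted by length, the log2 change of Dnaja1 was -0.04. Dnaja3 (chr16:4684070-4707695, plus strand), the mitochondrial partner of mortalin, measured 46.6, 44.8 and 64.3 FPKM in overexpression samples and 31.9, 38.2 and 34.7 FPKM in controls. The groups were separate, with overexpression sample 3 the highest. Its log2 change was 0.54 ± 0.17 (SE), with an unadjusted p of 0.013 and an adjusted p of 0.48 in limma. Dnaja2, the most abundant Dnaja gene, had 107, 107 and 98.1 FPKM in overexpression samples and 107, 83.4 and 82.9 FPKM in controls, so control 1 was level with the overexpression samples.

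The 7 Dnajb genes were divided, with 3 positive and 4 negative log2 changes, beside 54.2% of all genes positive. That of Dnajb2 was 0.008, and -0.012 when transcripts were weighted by length. Dnajb6, a J protein that holds back the aggregation of polyglutamine proteins, measured 64.3, 63.4 and 65.9 FPKM in overexpression samples and 80.4, 76.5 and 74.9 FPKM in controls. The spread within each group was small and the groups were separate. The log2 change of -0.26 ± 0.13 (SE) had an unadjusted p of 0.076 in limma. Dnajb1, the main heat-inducible partner of HSP70, had 75.8, 73.0 and 77.9 FPKM in overexpression samples and 70.0, 83.9 and 89.7 FPKM in controls, where the controls lay on both sides.

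The 22 Dnajc genes had 12 positive and 10 negative log2 changes and 1 gene at an unadjusted p under 0.05. These shares, 54.5% positive and 4.55% at that p, stand beside 54.2% and 9.16% of all genes. Dnajc9, a J protein that also chaperones histones, had 121, 111 and 146 FPKM in overexpression samples and 94.0, 101 and 98.3 FPKM in controls. The groups were separate. Its log2 change of 0.36 ± 0.15 (SE) had an unadjusted p of 0.044 and an adjusted p of 0.53 in limma, and the unadjusted p was 0.090 without overexpression sample 1, 0.15 without overexpression sample 3, 0.065 without control 1, 0.085 without control 2 and 0.084 without control 3. Dnajc12, whose product assists the folding of aromatic amino acid hydroxylases, had 2.43, 2.82 and 0 FPKM in overexpression samples and 3.56, 3.16 and 4.43 FPKM in controls. It was the only member listed at 0 in a sample, and the log2 change of -0.99 ± 0.46 (SE) shrank to -0.37 without overexpression sample 3. At the thresholds of the study, Dnajc12 passed without overexpression sample 1 (-1.26, unadjusted p of 0.030) and without overexpression sample 2 (-1.34, unadjusted p of 0.021).

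Small heat shock proteins hold unfolded proteins without ATP. The 3 measured Hspb genes, which include Hspb11, a member by name whose product works in the transport of cilia, all had negative log2 changes, and the median of -0.28 is the value of Hspb11 itself. Hspb11 was the most abundant at 25.9, 21.5 and 24.4 FPKM in overexpression samples and 31.7, 31.1 and 25.2 FPKM in controls. Only overexpression sample 1 reached into the controls, and the unadjusted p was 0.11 in limma. Hspb6 had 10.4, 9.01 and 3.60 FPKM in overexpression samples and 9.90, 10.3 and 11.0 FPKM in controls, with overexpression sample 3 alone far below.

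Bag3, which joins HSP70 to small heat shock proteins and to autophagy and is itself induced by stress, had 56.4, 43.7 and 33.1 FPKM in overexpression samples and 55.4, 61.1 and 60.5 FPKM in controls. Overexpression samples 2 and 3 lay below all controls, and sample 1 between them. The log2 change of -0.43 ± 0.20 (SE) had an unadjusted p of 0.057 in limma. Without overexpression sample 1 it was -0.62 with an unadjusted p of 0.013, and without overexpression sample 3 it was -0.24 with an unadjusted p of 0.21. Bag6, the most abundant BAG gene, which guards membrane proteins on their way to the endoplasmic reticulum, had 118, 136 and 112 FPKM in overexpression samples and 99.2, 128 and 135 FPKM in controls, with the groups mixed.

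The factors that control these genes showed no difference beyond their spread. Hsf1, the main regulator of the heat shock response, had 24.6, 28.4 and 25.5 FPKM in overexpression samples and 20.9, 27.3 and 26.5 FPKM in controls, with a log2 change of 0.08 and a 95% interval of -0.28 to 0.44. Hsf2 had 9.37, 7.97 and 7.05 FPKM in overexpression samples and 11.5, 7.88 and 6.22 FPKM in controls, with a log2 change of -0.03 and a 95% interval of -0.56 to 0.49. Samples overlapped for both. Of the 6 genes listed as heat-inducible members and present in the table, Hsph1 was higher in every overexpression sample, whereas Hspa1a, Hspa1b, Hsp90aa1, Dnajb1 and Bag3 overlapped. Among all genes, 10.1% were higher in every overexpression sample than in any control and 6.24% were lower. The RNA level of Hsf1 does not show the activity of its protein.

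The level of a gene here is a sum over its transcripts, and in several abundant chaperones the estimates moved between transcripts of 1 gene. Hspa8-001, of 2394 bases, had 435, 325 and 110 FPKM in overexpression samples and 273, 354 and 373 FPKM in controls. Hspa8-003, of 2019 bases, had 25.3, 68.7 and 547 FPKM in overexpression samples and 10.8, 10.2 and 15.03 FPKM in controls. In overexpression sample 3 the shorter transcript thus held most of the level, and in the other samples the longer one did. Hsp90aa1-001 had 32.1, 155 and 228 FPKM in overexpression samples and 213, 153 and 148 FPKM in controls, while Hsp90aa1-002 had 239, 1.68 and 5.66 FPKM in overexpression samples and 78.0, 5.72 and 6.04 FPKM in controls. Here it was overexpression sample 1 and, in part, control 1 that differed from the rest of both groups.

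Hsph1-002 was among the transcripts that passed the thresholds. It had 30.5, 31.2 and 32.0 FPKM in overexpression samples and 0, 2.78 and 12.5 FPKM in controls. Its log2 change of 3.12 ± 0.86 (SE) had an unadjusted p of 0.0097 and an adjusted p of 0.61 over all transcripts in limma. Controls 1 and 2 held the gene mainly in other transcripts, Hsph1-001 in control 1 at 31.5 FPKM and Hsph1-007 in control 2 at 21.97 FPKM. In control 3, Hsph1-007 at 13.2 FPKM was only just above Hsph1-002 at 12.5 FPKM. For Dnajb6, the transcript Dnajb6-002 had 26.4, 29.6 and 31.8 FPKM in overexpression samples and 47.4, 41.5 and 36.3 FPKM in controls, separate between groups with an unadjusted p of 0.016. Dnajb6-001 lay between 29.7 and 34.2 FPKM in all samples, with a log2 change of 0.00.

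Over all transcripts, 12 of the 140 chaperone transcripts passed the thresholds of the study, beside 5.57% of all transcripts (3.07% higher and 2.51% lower), and 0 had an adjusted p under 0.05 in limma, beside 0.101% of all transcripts. Bag6-001, Cct3-006, Cct8-005, Dnajc4-202, Dnajc8-006, Dnajc19-004, Hspa8-003 and Hsph1-002 were higher, and Bag6-002, Bag6-201, Dnajc7-010 and Hspa2-201 were lower. Several were at low levels, such as Dnajc8-006 with means of 1.19 FPKM in overexpression samples and 0.446 FPKM in controls. Bag6-002 was at 0 in all overexpression samples and control 1, and at 4.07 and 4.15 FPKM in controls 2 and 3. The groups overlapped for Bag6-001 and Bag6-002. The count of chaperone transcripts past the thresholds was 5 without control 2. When each gene's fragments were summed by weighting FPKM with transcript length, a setting added after these shifts had been seen, the log2 change was 0.46 for Hspa8 (unadjusted p of 0.057) and 0.46 for Hsph1 (unadjusted p of 0.033). With the most abundant transcript alone, that of Hspa8 was -0.40, the opposite sign.

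**Figure D4:**
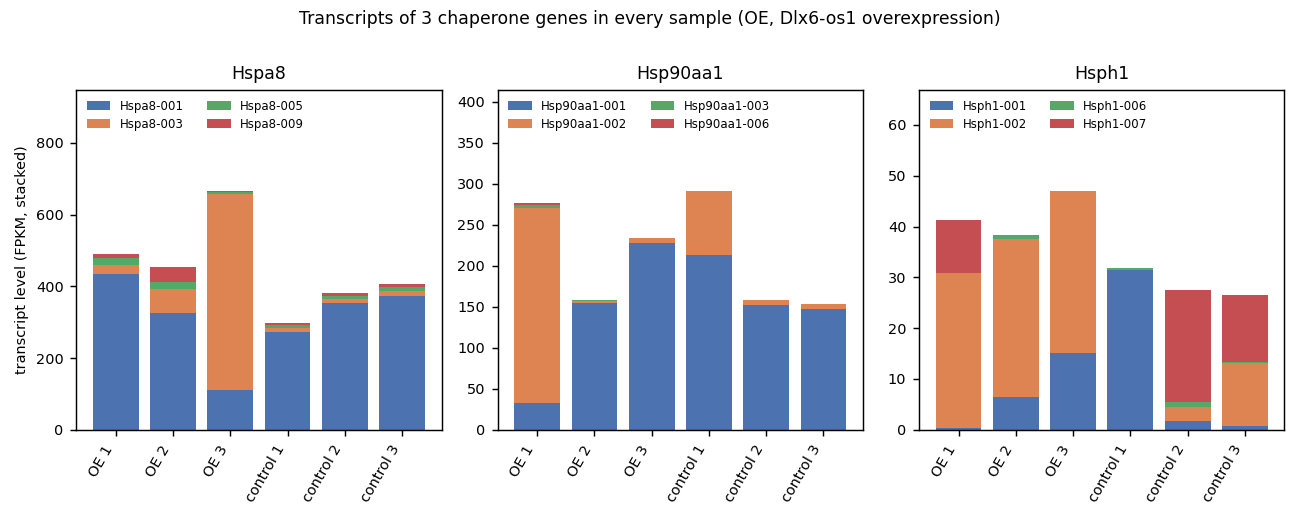
Transcript levels (y axis, FPKM, stacked) of Hspa8, Hsp90aa1 and Hsph1 in each Dlx6-os1 overexpression (OE) and control sample. Hspa8-003 makes up most of overexpression sample 3, and Hsp90aa1-002 most of overexpression sample 1. Hsph1-002 is the main Hsph1 transcript in all overexpression samples but in no control, although in control 3 it is nearly level with Hsph1-007.

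Partners of the same machines under other names were also counted. Of 23 measured co-chaperones of HSP90 and HSP70, 20 had positive log2 changes, which is 86.96% beside 54.2% of all genes, with a median of 0.13 beside 0.03. None passed the thresholds of the study, and 3, or 13.0%, had an unadjusted p under 0.05, beside 9.16% of all genes. Stip1 (HOP), which links HSP70 to HSP90, had 195, 204 and 233 FPKM in overexpression samples and 129, 151 and 156 FPKM in controls, without overlap. Its log2 change was 0.53 ± 0.15 (SE), with an unadjusted p of 0.0079 and an adjusted p of 0.45 in limma. Nudc, an HSP90 partner in nuclear migration, had 130, 141 and 152 FPKM in overexpression samples and 83.1, 104 and 107 FPKM in controls, without overlap, with a log2 change of 0.53 and an unadjusted p of 0.0089. Cdc37l1 was the third, with a log2 change of 0.41 and an unadjusted p of 0.046, which was over 0.05 in 5 of the 6 leave-one-out fits (0.076 to 0.17). The 12 prefoldin genes and CCT helpers, which hand actin and tubulin to the chaperonin, had 6 positive and 6 negative log2 changes and none at an unadjusted p under 0.05.

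Of 10 genes of mitochondrial protein quality control, 7 had positive log2 changes and 1 passed the thresholds, beside 54.2% of all genes positive and 4.72% past the thresholds. Lonp1, the protease that clears damaged proteins from the matrix, had 85.0, 98.8 and 127 FPKM in overexpression samples and 52.9, 68.0 and 62.4 FPKM in controls. The groups were separate, and the log2 change was 0.74 ± 0.18 (SE), with an unadjusted p of 0.0035 and an adjusted p of 0.42 in limma. Of 7 chaperone genes of the endoplasmic reticulum, 6 had positive log2 changes and 1, Hspa5 (BiP), passed, beside the same 54.2% and 4.72% of all genes. Hspa5 had 298, 117 and 153 FPKM in overexpression samples and 116, 83.9 and 98.6 FPKM in controls. Overexpression sample 1 stood far above the rest, and sample 2 was almost level with control 1. The log2 change of 0.82 ± 0.32 (SE) had an unadjusted p of 0.031 and an adjusted p of 0.51 in limma. It was 0.44 without overexpression sample 1 (unadjusted p of 0.085), 0.71 without control 2 (unadjusted p of 0.10) and 0.82 without control 3 (unadjusted p of 0.057). Cryab, an abundant small heat shock protein under its crystallin name, had 532, 515 and 397 FPKM in overexpression samples and 520, 666 and 709 FPKM in controls, which overlapped. No gene passed among the 4 measured of that list, or among the 5 measured partners of heat shock factors and other heat-inducible genes.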

How the data were processed

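RNA-seq was done on 3 Dlx6-os1 overexpression and 3 control samples of MPC5 cells, grouped by their titles. The authors deposited FPKM values of protein-coding transcripts. FastQC, HISAT2, StringTie and the build mm10 are named in the processing notes, and versions and annotation release are not given in the sources used here. Low-level transcripts were removed before deposit. Depth is unknown: no read step made more than 32.4% of 250 low values per sample whole within 0.1. Errors are therefore taken from the spread between replicates and not from read counts. In limma this spread is moderated toward a trend over all genes, so it is not that of each gene alone.

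FPKM were summed by gene symbol and analysed as log2(FPKM + 1). A two-sided moderated linear model (limma 3.58.1, R 4.3.3) with a trend of variance on mean level was fitted to the whole table, and p-values were adjusted by Benjamini-Hochberg. The pseudocount of 1 understates changes of low genes. A filter at a mean of 0.5 removed no member. With 3 samples a group, an exact permutation p could not go under 0.1 and is not printed. The methods of the study state the thresholds but no test for RNA-seq.

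Members and lists were chosen with earlier results of these data known. Values in every sample are given for members at an unadjusted p under 0.05, the most abundant member of each class, the mitochondrial chaperonin, the heat shock factors and heat-inducible members. Hspa14, Cct8, Dnajb6, Dnajc12 and Hspb6 were added after their values were seen, as were the transcripts described. Of the other lists, the genes that passed and up to 3 with the lowest p were eligible. Promoters are from RefSeq on GRCm38.p6 and lengths from GENCODE M21.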

Additional observations from a re-analysis of the deposited data

How the results depend on the processing

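Other pseudocounts, filters and TPM scaling left the counts of chaperone genes as they were, and none had an adjusted p under 0.05 in limma in any setting. The count higher at the thresholds of the study was 1 with the most abundant transcript and 0 to 4 when a sample was left out. The count lower ranged from 0 to 4 in those fits. At an unadjusted p under 0.05 there were 11 genes without moderation and 4 to 13 with a sample left out. The share of all genes was not counted in these settings. The median log2 change was 0.049 after quantile normalization, 0.040 after median-centring, 0.031 with the most abundant transcript and 0.048 to 0.106 with a sample left out. Chaperone transcripts at the thresholds numbered 6 without moderation and 5 to 18 with a sample left out, and other genes of the pathway 1 without moderation, 1 with the most abundant transcript and 1 to 6 with a sample left out. Among the alternative values of single genes, 36 newly passed an unadjusted p under 0.05, 27 no longer did, 15 took the other sign and the remaining 660 did neither.

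With the most abundant transcript, the log2 change was -0.401 for Hspa8, -0.681 for Hsp90aa1, -0.017 for Bag6 and -0.071 for Uri1. Bag6 was at -0.018 after median-centring and -0.084 with fragments summed per gene. With a sample left out, the log2 change ran from -0.113 to 0.104 for Bag6, -0.041 to 0.146 for Hsf1, -0.214 to 0.182 for Hsf2, -0.089 to 0.240 for Hspa1b, -0.207 to 0.134 for Sec63 and -0.016 to 0.246 for Trap1. The cause of these changes of sign was not tested.

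Same-numbered samples did not deviate together in every pair (correlations of 0.29, 0.02 and 0.29), so the numbers are not taken to pair the samples. Each sample correlated best with its own number except overexpression sample 2 and control 2. With the replicate number as a block, 2 genes were lower at the thresholds, 0 higher, and 9 had an unadjusted p under 0.05.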
